A study of Mus musculus with 71 samples.

Results

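The regions described here are 2392 of the 155738 intervals of open chromatin measured in ventral spinal cord progenitors made from mouse embryonic stem cells, and they were chosen because they were less accessible in pMN progenitors than in p0-p1 and p2 progenitors on day 11 of differentiation. The choice used the mean over a group of log2(value + 5), where the value is the authors' normalised read count of an interval in a library. A member had a day 11 WT level in both p0-p1 and p2 that exceeded the pMN level by at least 0.7, levels in p0-p1 and p2 that differed by less than 0.4, and no WT day 5 level in pMN that exceeded p0-p1 by 0.8 or more. The members are 1.54% of all intervals. The WT libraries of day 11 and the WT p0-p1 and pMN libraries of day 5 therefore chose the members, and their values are given below as a description with no test. The tests use the MUT libraries of all days and the WT libraries of days 7 and 9.

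Progenitors of the ventral spinal cord lie in dorsoventral domains that are set up by the morphogen Sonic hedgehog. The pMN domain is marked by the transcription factor OLIG2 and gives rise to motor neurons and later to oligodendrocyte precursors, while the p0, p1 and p2 domains lie dorsal to it and give rise to ventral interneurons. OLIG2 is known as a repressor of genes that belong to the neighbouring interneuron domains. NFIA is a transcription factor that is gained by spinal cord progenitors as they pass from making neurons to making glia. ATAC-seq reads chromatin accessibility: a transposase cuts and tags open DNA, and the reads that fall in an interval measure how open it is.

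The 71 libraries fall into 26 groups by genotype, day, sorted population and fraction for NFIA, of which 7 hold 2 libraries and 19 hold 3, with 38 libraries labelled WT and 33 labelled MUT. All cultures were grown with basic FGF, then CHIR99021 (a GSK3β inhibitor), then retinoic acid and the Smoothened agonist SAG, and kept in SAG from day 5. Cells were fixed, transposed, stained inside the cell for markers that include SOX2 and OLIG2, and sorted into the pMN, p2 and p0-p1 populations. WT libraries are of the fraction labelled NFIAn on days 5 and 7, of both fractions on day 9 (NFIAp only in p2 and pMN) and of NFIAp on day 11. MUT libraries are all of NFIAn, on days 5, 7, 9 and 11, so at day 11 genotype and fraction cannot be told apart. The labels used here do not name the mutated gene or the number of clones, and nothing in them ties a replicate to a culture of its own, so the p-values given here reflect library-to-library spread that may be technical. The intervals carry numbers but no positions or gene names here, so the populations could not be checked against marker genes and no sequence is shown.

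Recovered reads per library ranged from 20034731 to 31315134. The median over the members of their mean value was 31.7 normalised reads, with quartiles of 16.3 and 74.5, against 31.8 over all intervals. At that level counting error alone is 17.6%. Of the members, 309 (12.9%) lie in 3 runs of consecutive intervals that shift together between libraries or genotypes, as do 14.03% of all intervals. Inside 1 of these 3 runs, 5 consecutive intervals together had 148 or more reads in WT libraries and at most 1 read in MUT libraries, with 2 exceptions. The library labelled WT day 7 pMN replicate 3 had 0 reads there and the library labelled MUT day 7 pMN replicate 3 had 213. The library labelled WT day 9 p2 NFIAp replicate 2 lay closer to WT day 9 pMN NFIAn (root mean square difference of 0.34 on the log2 scale) than to its own group (0.60). Counts of members that rest on these 3 libraries are given with and without them. Where no share of all intervals is printed for a count without a library or under another setting, that share may differ from the main one. Replicate 1 of the same group also lay closer to a pMN group, WT day 9 pMN NFIAp (0.48), than to its own (0.54). Its median over the members, 31.9 normalised reads, lay above all pMN libraries, but that level is what is compared, so it cannot clear the library. In NFIAp cells 222 members were lower in pMN than in p2 with all libraries, 124 without replicate 1 and 644 without replicate 2.

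In the WT libraries of day 11, which chose the members, the median over the members was 41.0, 40.9 and 34.5 normalised reads in the 3 p0-p1 libraries, 39.0, 39.7 and 33.8 in the 3 p2 libraries and 16.04, 15.6 and 14.9 in the 3 pMN libraries. The libraries of p0-p1 and p2 overlapped each other, and all 6 lay above the 3 of pMN, as the choice requires. The members were lower in pMN and not closed there: the median pMN value was 41.3% of the mean of p0-p1 and p2, with quartiles of 33.4% and 47.7%. In 353 members (14.8%) the WT day 11 pMN mean was under 5 normalised reads, against 11.8% of all intervals, and in 722 members (30.2%) it was 30 or more, against 51.04% of all intervals. They are therefore called pMN-low regions here, since the data do not show exclusion from pMN. Reads from pooled sorted cells do not tell whether fewer cells of a population have a region open or whether it is less open in each cell.

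The limits cut through a continuous range. Just inside the limit of 0.7 on the day 11 difference lay Interval_104431 and Interval_107172, both at 0.70, and just outside lay Interval_41026 and Interval_85815, also at 0.70 after rounding. At the limit on p0-p1 against p2, Interval_109853 and Interval_121737 lay inside and Interval_66992 and Interval_30424 outside, all at 0.40. At the day 5 limit, Interval_16725 and Interval_129511 lay inside and Interval_110405 and Interval_87210 outside, all at 0.80. The largest day 11 difference among the members was 2.65.

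**Figure D1:**
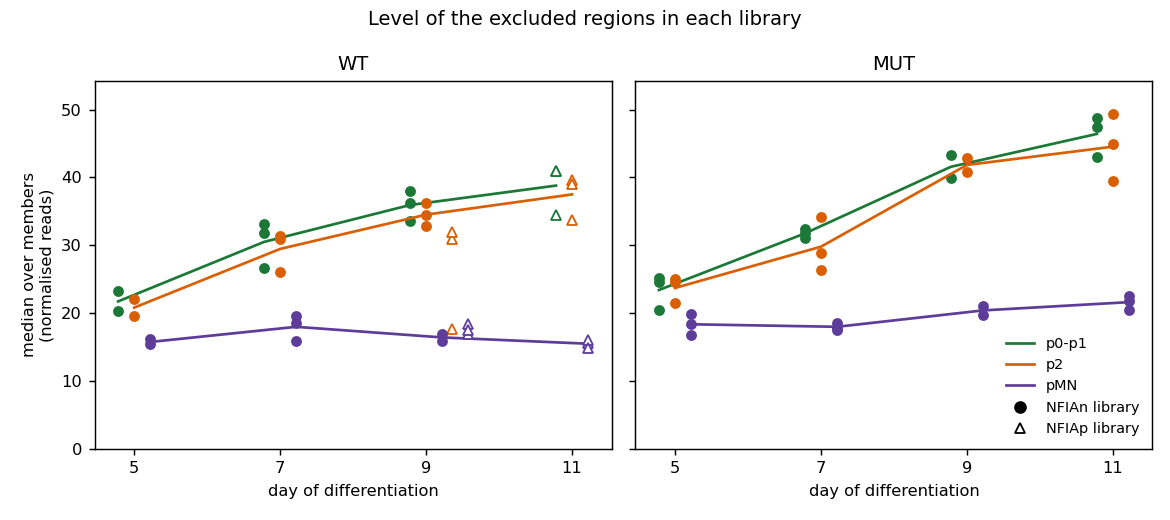
Median over the 2392 pMN-low regions in each library (y, normalised reads) by day of differentiation (x), for WT (left) and MUT (right); filled circles are NFIAn libraries, open triangles NFIAp libraries, and lines join group means (NFIAn on day 9). The pMN libraries stay between 14.9 and 22.5 on all days while the p0-p1 and p2 group means lie between 20.8 and 23.7 on day 5 and their libraries at 33.8 or more on day 11.

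The question for the MUT libraries of day 11 was whether cells of the other genotype, and of the other NFIA fraction, have the same pMN-low regions. The median over the members was 48.8, 47.5 and 43.0 normalised reads in the MUT day 11 p0-p1 libraries, 49.3, 44.9 and 39.4 in p2 and 21.8, 22.5 and 20.5 in pMN. The 6 libraries of p0-p1 and p2 did not overlap with the 3 of pMN. An interval was called at an adjusted p under 0.05 in limma, with Benjamini-Hochberg adjustment over all intervals tested, and a log2 difference of at least 0.7, the size used to choose the members. By that measure 1445 members (60.4%) were lower in MUT pMN than in the mean of MUT p0-p1 and p2 on day 11, against 8.77% of all intervals. None was called higher by limma, against 4.83% of all intervals, although 3 members were higher at an unadjusted p under 0.05 and edgeR called 1. The median difference was -0.82 over the members, with quartiles of -1.12 and -0.53, and 0.02 over all intervals.

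Taken against each population alone, 1380 members (57.7%) were lower in MUT pMN than in p0-p1 on day 11, and 2 higher, against 12.6% and 9.32% of all intervals. Against p2, 1163 (48.6%) were lower and 0 higher, against 4.82% and 1.50% of all intervals, with 1 member higher at an unadjusted p under 0.05. Without MUT day 11 p2 replicate 1 the count lower than p2 was 774. Both comparisons use the same pMN libraries. The day 11 size limits of the choice, applied to the MUT group means with no test, were met by 856 members (35.8%) and by 2.61% of all intervals. The median MUT pMN value on day 11 was 50.1% of the mean of p0-p1 and p2, and 158 members (6.61%) had a pMN mean under 5, against 9.68% of all intervals. MUT and WT libraries of day 11 that share a replicate number and a population deviated from their group means together, with a mean correlation over intervals of 0.29 for p0-p1, 0.24 for p2 and 0.19 for pMN. The part of this in the MUT result was not tested.

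The MUT calls are given next by the size of the WT day 11 difference, which itself chose the members, as a description with no test. Among the 598 members with the smallest WT difference, 0.70 to 0.78, 220 (36.8%) were lower in MUT day 11 pMN, with a median difference of -0.60. Among the 598 with the largest, 1.076 to 2.65, 536 (89.6%) were, with a median of -1.17. By mean value, 51.2% of the 598 lowest members were lower in MUT day 11 pMN, with a median difference of -0.74, and 66.9% of the 598 highest, with a median of -0.86.

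**Figure D2:**
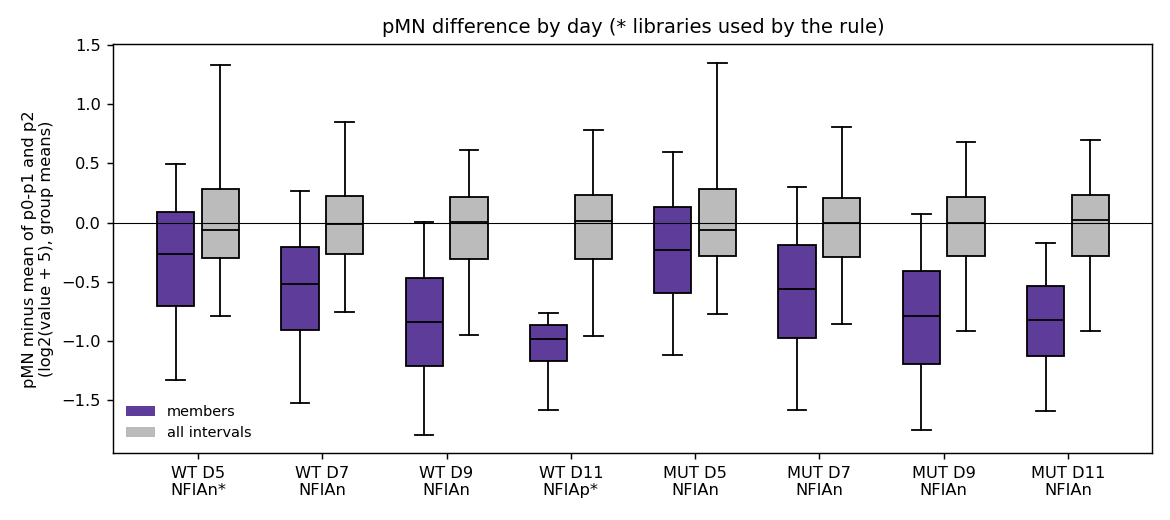
Difference between pMN and the mean of p0-p1 and p2 in group means of log2(value + 5) (y) for the pMN-low regions (purple) and all intervals (grey) by genotype and day; boxes are quartiles with the median, whiskers the 5th and 95th percentiles, and asterisks mark libraries that chose the members. The members' median is -0.23 in MUT day 5 and -0.82 in MUT day 11, and medians of all intervals lie between -0.06 and 0.02.

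Before day 11, a minority of the pMN-low regions were called lower in pMN on day 7. In the NFIAn fraction of day 9, with all libraries, about as many were called as not. In the NFIAp fraction of WT day 9, against p2 alone, 222 (9.28%) were, against 0.606% of all intervals. In WT day 7 the group means of the libraries' medians were 30.5 ± 3.44 normalised reads for p0-p1, 29.5 ± 2.97 for p2 and 18.0 ± 1.87 for pMN (SD, n = 3 each). There, 873 members (36.5%) were lower in pMN and 19 higher, against 5.79% and 7.13% of all intervals (limma), with a median difference of -0.52. Without the 2 day 7 libraries that go against their genotype labels, and the day 9 library above, these counts were 907 and 19. The shares of all intervals were then 6.49% and 5.83%.

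In the WT day 9 NFIAn fraction the corresponding means were 35.9 ± 2.24 for p0-p1 (SD, n = 3), 34.5 ± 1.71 for p2 (SD, n = 3) and 16.4 ± 0.76 for pMN (SD, n = 2). The 2 pMN libraries lay below all 6 others. Here 1295 members (54.1%) were lower in pMN, against 7.60% of all intervals, with a median difference of -0.84. None was called higher by limma, against 2.71% of all intervals, while 4 were higher at an unadjusted p under 0.05 and edgeR called 1. The pMN group has 2 libraries, and without replicate 1 the count fell to 779, the remaining library being assumed to vary like the other groups.

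The MUT libraries gave an order of days like that of WT. On MUT day 5 the libraries' medians averaged 23.4 ± 2.59 for p0-p1, 23.7 ± 1.93 for p2 and 18.4 ± 1.50 for pMN (SD, n = 3 each). On that day 447 members (18.7%) were lower in pMN and 74 (3.09%) higher, against 6.30% and 12.8% of all intervals, with a median of -0.23 against -0.06. These shares are partly set by the choice: of the 893 intervals left out by the WT day 5 limit, 728 (81.5%) were higher in pMN on MUT day 5. On MUT day 7, 949 members (39.7%) were lower and 27 higher, against 7.65% and 6.39% of all intervals, with a median of -0.56. Without the 3 libraries that go against their labels the MUT day 7 counts were 896 and 29, against 6.74% and 6.38% of all intervals. On MUT day 9, 1125 members (47.0%) were lower and 5 higher, against 6.27% and 3.32% of all intervals, with a median of -0.79. The 3 MUT day 9 groups have 2 libraries each, and without pMN replicate 1 the counts were 609 and 2. The count of members higher was 3 without p2 replicate 1 and 1 without pMN replicate 2.

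The calls on different days and in both genotypes do not share libraries, so they can be set side by side for each member. Of the members, 225 (9.41%) were lower in pMN on all 4 MUT days, against 0.771% of all intervals. Without the 3 libraries above, 233 were, against 0.783%. A larger number, 1157 (48.4%), were lower on MUT day 11 and not called lower on MUT day 5, against 7.57% of all intervals. In WT, 696 members (29.1%) were lower on both day 7 and day 9 NFIAn, against 2.94% of all intervals, while 599 (25.04%) were lower on day 9 and not on day 7 and 177 (7.40%) had the reverse, against 4.66% and 2.85%. Without the 3 libraries these counts were 720, 611 and 187, against 3.18%, 4.76% and 3.30% of all intervals. In 484 members (20.2%) the call was made on days 7 and 9 of both genotypes and on MUT day 11. The share of all intervals was 1.57%. Without the 3 libraries it was made in 491 members, against 1.59%. No call in either direction between pMN and the others was made for 436 members (18.2%), against 62.2% of all intervals. This covers WT day 7, WT day 9 of either fraction and all MUT days. Without the 3 libraries 377 members had no such call, against 61.2%. Of the members, 48 (2.01%) were higher in pMN on MUT day 5 and lower on MUT day 11, against 2.08% of all intervals. The WT day 5 limit of the choice bears on this count, since it left out intervals higher in pMN on that day.

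**Figure D3:**
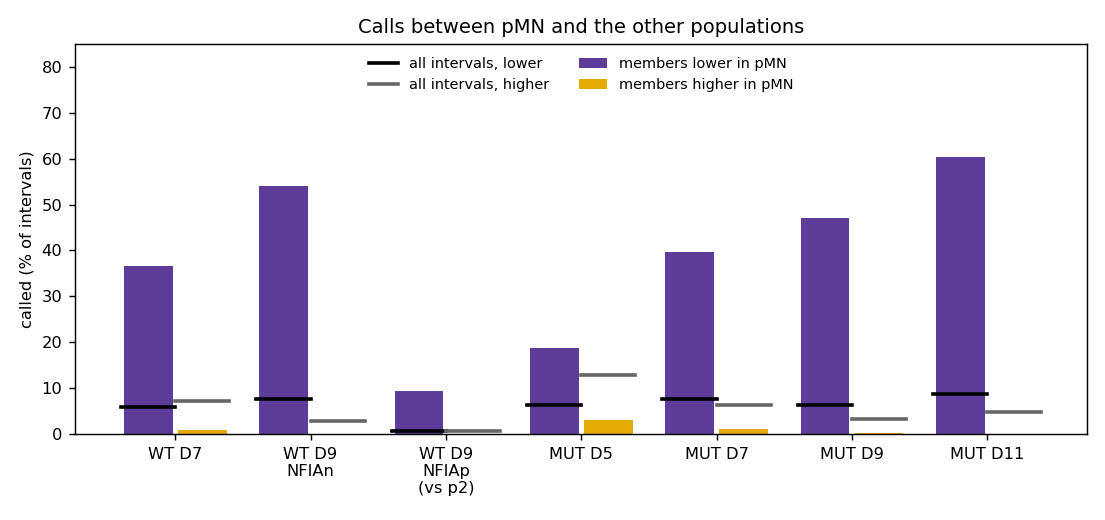
Share of the pMN-low regions called lower (purple) or higher (yellow) in pMN than in the other populations (y, %) by comparison (x), with horizontal lines for all intervals (black lower, grey higher). The share called lower is 18.7% on MUT day 5 and 60.4% on MUT day 11; the WT day 9 NFIAp comparison is against p2 alone and rests on a doubted library.

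Across the members, the size of the pMN difference on a day ran alike in both genotypes. Pearson's r over 2392 intervals was 0.84 between WT and MUT on day 7 and 0.80 on day 9 NFIAn, against 0.82 and 0.78 over all intervals, and the day 7 value was 0.85 without the 2 libraries that go against their labels. Between MUT day 5 and MUT day 11 it was -0.03 over the members and -0.02 over all intervals. Intervals are not independent replicates, and same-numbered WT and MUT libraries of a day deviated together, so these are descriptions.

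Interval_44160 was lower in pMN on all days tested. In MUT its values were 93.1, 138 and 155 in p0-p1, 85.9, 128 and 155 for p2 and 15.9, 32.4 and 62.7 for pMN on day 5, and 242, 284 and 397 in p0-p1, 180, 179 and 213 for p2 and 24, 46 and 47.6 for pMN on day 11. The pMN libraries lay below all others on both days. The pMN difference in limma was -1.77 ± 0.27 (SE) on MUT day 5 with an adjusted p of 2e-07, and -2.52 ± 0.27 on MUT day 11 with an adjusted p of 7.2e-11. In WT day 9 NFIAn it was -2.66 ± 0.31, from 344, 362 and 321 normalised reads in p0-p1, 206, 178 and 159 for p2 and 31.8 and 38.9 for pMN. The order within the upper populations was the same in every NFIAn group of days 7 and 9, with each p0-p1 library above each p2 library.

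Interval_82837 had its largest pMN difference among the comparisons outside WT day 11 in the NFIAn fraction of WT day 9. Its values there were 190, 212 and 137 in p0-p1, 121, 110 and 105 for p2 and 10.6 and 14 for pMN. The limma difference was -3.08 ± 0.29 (SE), with an adjusted p of 1.9e-12, against -2.53 ± 0.25 on WT day 7, where the pMN group includes the library that goes against its genotype label. In the NFIAp fraction of WT day 9, against p2 alone, it was -1.21. That p2 group includes the doubted replicate 2, and the value without it is not given here. Over the members the median of this comparison was -0.41 with that library and -0.61 without it. In MUT the interval rose from day 5 to day 11 by 1.82 in p0-p1 and 1.13 in p2 and was not called in pMN (0.24).

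Interval_89924 fell in pMN while p0-p1 and p2 had no called change. In MUT pMN it had 372, 366 and 403 normalised reads on day 5, 132, 109 and 125 on day 7, 114 and 120 on day 9 and 94.8, 120 and 129 on day 11. In MUT p0-p1 it had 610, 728 and 631 on day 5 and 638, 622 and 577 on day 11. The fall in pMN took place between days 5 and 7, and the later pMN libraries overlapped one another. The MUT day 7 pMN values include the library that goes against its genotype label. The change from day 5 to day 11 was -1.70 ± 0.20 (SE) in pMN, with an adjusted p of 3.1e-11 in limma, and -0.10 ± 0.20 in p0-p1.

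**Figure D4:**
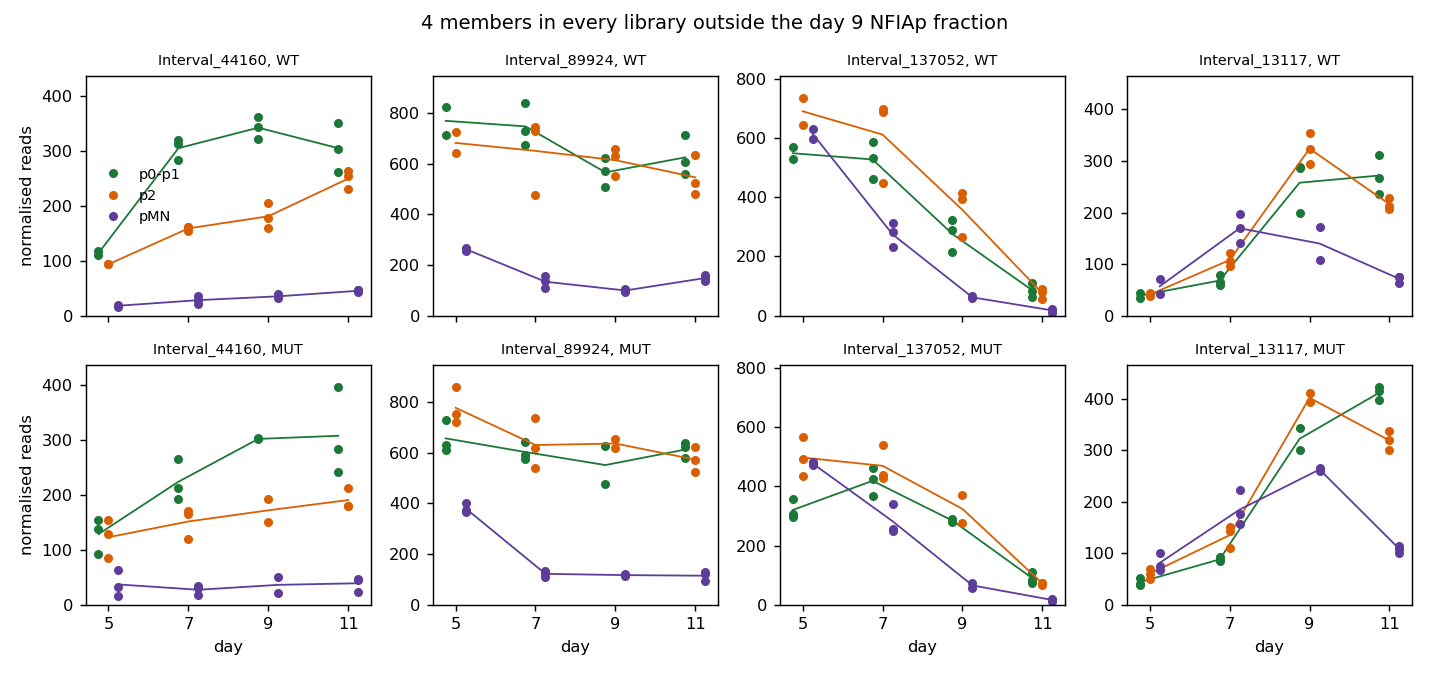
Normalised reads (y) by day (x) in every WT (top) and MUT (bottom) library outside the day 9 NFIAp fraction for Interval_44160, Interval_89924, Interval_137052 and Interval_13117; points are libraries, lines join group means, and the y axis of an interval is the same for both genotypes. Interval_89924 holds 522 or more in MUT p0-p1 and p2 on day 11 and at most 129 in pMN, and Interval_13117 is highest in pMN on MUT day 7 and lowest there on day 11.

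How the difference arises over time was followed in MUT, whose libraries did not choose the members. The WT day 5 limit of the choice still bears on it. Of the 893 intervals which that limit left out, 728 (81.5%) were higher in pMN on MUT day 5. In MUT pMN 528 (59.1%) of them fell, and 874 (97.9%) had a more negative change than in p0-p1 and p2. The counts and classes below that involve falls in pMN are therefore partly set by the choice. From day 5 to day 11, 1269 members (53.1%) rose and 439 (18.4%) fell in p0-p1, against 30.8% and 23.5% of all intervals. In p2, 1177 rose and 492 fell, against 29.0% and 24.1% of all intervals. In pMN, 774 rose and 642 fell, against 26.3% and 26% of all intervals. The medians of the change were 0.85 for p0-p1, 0.67 for p2 and 0.16 for pMN, and between 0.00 and 0.05 over all intervals. The change in pMN was more negative than the mean of the others in 828 members (34.6%) and more positive in 27 (1.13%), against 15.0% and 7.23% of all intervals, by a test of the difference of the changes in limma. The count of 27 was 9 without MUT day 5 pMN replicate 1, 15 without MUT day 11 pMN replicate 1 and 17 without MUT day 5 p0-p1 replicate 2 or MUT day 11 pMN replicate 3. In WT, where the same libraries chose the members, the medians from day 5 to day 11 were 0.77 for p0-p1, 0.70 for p2 and -0.04 for pMN.

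Sorted by these calls, the members did not share 1 course. The largest class, 722 members (30.2%), rose in all 3 MUT populations, against 17.5% of all intervals, with median changes of 2.20 (p0-p1), 2.22 (p2) and 1.41 (pMN). A further 372 (15.6%) rose in p0-p1 and p2 with no call in pMN, against 5.06% of all intervals, and 8 (0.334%) rose in both and fell in pMN, against 0.801%. In 358 (15.0%) all 3 populations fell, against 15.6% of all intervals. Another 133 (5.56%) fell in pMN with no call in p0-p1 or p2, against 3.84%. No call in any population was made for 350 (14.6%), against 28.3%.

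These classes were set in MUT, and the WT libraries of days 7 and 9 show how many of each were called lower in pMN. Of the members that rose in all 3 populations, 200 (27.7%) were lower in WT pMN on day 7 and 404 (56.0%) on day 9 NFIAn, against 4.55% and 9.11% of all intervals of that class. Of those that rose in p0-p1 and p2 with no call in pMN, 104 (28.0%) were lower on day 7 and 231 (62.1%) on day 9, against 8.43% and 24.6%. The remaining classes had these shares. Of those that fell in all 3, 172 (48.0%) were lower on day 7 and 198 (55.3%) on day 9, against 10.1% and 7.36%. Of those that fell in pMN with no call in p0-p1 or p2, 58 (43.6%) were lower on day 7 and 85 (63.9%) on day 9, against 6.13% and 11.6%. With no call in any population, 150 (42.9%) were lower on day 7 and 156 (44.6%) on day 9, against 2.93% and 2.57%. In the 457 members of other courses, 189 (41.4%) were lower on day 7 and 221 (48.4%) on day 9, against 6.51% and 8.21%. Without the 3 libraries the day 7 counts, in the same order, were 196, 97, 190, 62, 167 and 195. The shares of all intervals of each class were then 5.17%, 8.82%, 11.7%, 7.01%, 3.23% and 7.16%. The differences between the classes were not tested.

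**Figure D5:**
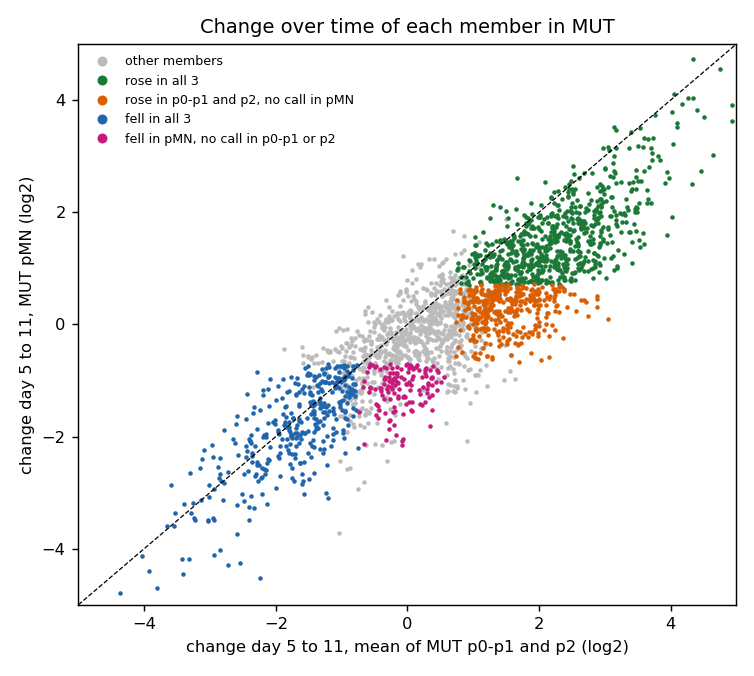
Change from day 5 to day 11 in MUT pMN (y, log2) against the mean change in MUT p0-p1 and p2 (x, log2) for each pMN-low region, coloured by its class of calls; the dashed line marks equal change. The 722 members that rose in all 3 populations lie mostly under the line, and 828 members in all are called under it.

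Interval_13117 changed order between the populations. On MUT day 7 it had 93.1, 84.9 and 86.3 normalised reads in p0-p1, 110, 151 and 144 for p2 and 176, 222 and 156 for pMN, and the pMN libraries were the highest. On MUT day 11 it had 415, 423 and 397 in p0-p1, 337, 319 and 300 for p2 and 109, 101 and 114 for pMN, and the pMN libraries were the lowest. The pMN difference was 0.73 ± 0.15 (SE) on day 7, with an adjusted p of 0.0001 in limma, and -1.70 ± 0.15 on day 11, with an adjusted p of 5.6e-14. In WT it was 0.93 ± 0.15 on day 7 and -1.05 ± 0.17 on day 9 NFIAn, both called. The day 7 pMN group of each genotype includes the library that goes against its genotype label, and the differences without it are not given here.

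Interval_130244 began near the floor outside pMN. On MUT day 5 it had 3.41, 7.85 and 4.21 in p0-p1, 4.30, 9.10 and 6.38 for p2 and 15.0, 20.5 and 18.3 for pMN. On MUT day 11 it had 94.1, 86.9 and 70.8 in p0-p1, 92.5, 82.1 and 76.1 for p2 and 22.9, 15.7 and 20.5 for pMN. The pMN level on day 11 overlapped its day 5 level while p0-p1 and p2 rose by 3.15 and 2.95. The difference of the changes was -2.94 ± 0.26 (SE), with an adjusted p of 2.5e-14 in limma.

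Interval_135341 rose in all 3 MUT populations. On MUT day 5 it had 20.4, 10.8 and 15.8 in p0-p1 and 9.36, 8.65 and 5.56 in pMN, and on day 11 it had 213, 220 and 229 in p0-p1, 182, 155 and 147 for p2 and 44.7, 38.2 and 55.0 for pMN. Each population on day 11 lay above its own day 5 libraries, with pMN the lowest. The rises were 3.48 ± 0.32 (SE) in p0-p1 and 1.99 ± 0.32 in pMN, and the pMN difference on day 11 was -1.94 ± 0.28 with an adjusted p of 2.6e-07 in limma. It lies in 1 of the runs of intervals that shift together.

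Interval_96016 and Interval_137052 fell in all 3 MUT populations. Interval_137052 had 478, 482 and 471 normalised reads in pMN on MUT day 5 and 14.2, 13.7 and 20.5 on day 11, where p0-p1 had 110, 73.4 and 85.1. Its pMN change of -4.53 ± 0.20 (SE) exceeded the p0-p1 change of -1.80 ± 0.20, and the difference of the changes was -2.28 with an adjusted p of 1.6e-11 in limma. It too lies in a run of intervals that shift together. Interval_96016 had 309, 295 and 340 in pMN on day 5 and 5.45, 5.88 and 8.40 on day 11, where p0-p1 had 24, 16.1 and 21.5 and p2 had 7.04, 8.59 and 14.7. There the p2 and pMN libraries overlapped on day 11, and its difference of the changes, -0.43 with an adjusted p of 0.23, was not called.

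In WT the same comparison can be made from day 7 to day 9 NFIAn. In p0-p1, 480 members rose and 270 fell, against 11.1% and 10.5% of all intervals. With equal library totals in place of the authors' scaling these counts were 561 and 194. In p2, 465 rose and 302 fell, against 8.75% and 11.4%. In pMN, 131 rose and 399 fell, against 7.59% and 13.1%, and without WT day 9 pMN NFIAn replicate 1 the counts were 49 and 247. Without the 3 libraries they were 127 and 332, against 6.93% and 10.4% of all intervals, and with only the compared groups in the fit 80 and 310. The change in pMN was more negative than in the others in 118 members (4.93%) and more positive in 2, against 2.35% and 0.189% of all intervals. That count rests on single libraries: it was 2 without WT day 9 pMN NFIAn replicate 1 59 without the library labelled WT day 7 pMN replicate 3 and 81 without the 3 libraries above. On WT day 7 the deviations of every same-numbered pair of libraries correlated above 0.1, with a mean of 0.30. On WT day 9, over both fractions, the mean was 0.20 and the lowest 0.05, so not every pair reached 0.1. With the replicate block 247 members had a more negative change and 10 a more positive one, against 4.78% and 0.868% of all intervals.

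The members were chosen to be alike in p0-p1 and p2 in WT day 11, and the other days show whether they were alike before. On MUT day 11, 93 members (3.89%) were lower in p2 than in p0-p1 and 36 (1.51%) were higher, against 6.54% and 5.56% of all intervals. Without MUT day 11 p0-p1 replicate 3 the counts were 62 and 19. The second count was 13 without p2 replicate 1, 17 without p2 replicate 2 and 63 without p2 replicate 3. The group means differed by less than 0.4 in 71.3% of members, against 66.1% of all intervals. Earlier days had a smaller share within 0.4 among the members than among all intervals: 47.4% against 71.5% in WT day 9 NFIAn, 51.3% against 68.9% in MUT day 9, 58.4% against 73.5% in WT day 7 and 60.9% against 72.6% in MUT day 7. On MUT day 5 the shares were 71.7% and 73.3%.

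On WT day 9 the differences ran in both directions. In WT day 9 NFIAn, 192 members (8.03%) were lower in p2 and 186 (7.78%) higher, against 4.30% and 3.78% of all intervals (limma). Without p2 replicate 3 the counts were 87 and 102, and without p0-p1 replicate 2 they were 89 and 135. Interval_66247 is such a region: on WT day 9 NFIAn it had 63.0, 49.8 and 71.1 normalised reads in p0-p1, 157, 215 and 261 for p2 and 14.8 and 27.9 for pMN, and the 3 populations did not overlap.

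The NFIA fractions were compared on day 9, the only day with both. In p2, 504 members (21.1%) were lower in NFIAp than in NFIAn and 40 (1.67%) higher, against 4.84% and 2.63% of all intervals (limma), with a median difference of -0.29. The median over the members was 31.9, 17.6 and 30.9 normalised reads in the 3 NFIAp p2 libraries, and replicate 2, at 17.6, lay with the pMN libraries, whose NFIAp mean was 17.6 ± 0.73 (SD, n = 3). Without that replicate, 363 members were lower and 131 higher, against 5.35% and 5.90% of all intervals, with a median of -0.12. Other single libraries also moved the higher count: it was 4 without NFIAp replicate 3 and 23 without NFIAn replicate 2 or 3. The replicate numbers paired these libraries, and with the replicate number as a block 576 were lower and 68 higher, against 5.81% and 4.35% of all intervals. With only the compared groups in the fit 159 were lower and 0 higher.

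In NFIAp cells, 222 members (9.28%) were lower in pMN than in p2, against 0.606% of all intervals, with a median of -0.41. None was called higher by limma or edgeR, against 0.720% of all intervals, and 7 were higher at an unadjusted p under 0.05. Without p2 NFIAp replicate 2, 644 members were lower and 2 higher, against 2.94% and 2.47% of all intervals, with a median of -0.61. The count was 48 without p2 replicate 3, 124 without p2 replicate 1, 114 without pMN replicate 1 and 130 without pMN replicate 2. The replicate numbers paired these libraries too, and with the block 422 members were lower and 1 higher, against 1.70% and 1.77% of all intervals. With only the compared groups in the fit limma called 0 members in either direction, with 495 lower and 2 higher at an unadjusted p under 0.05.

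Within pMN, with all libraries and no block, no member was called between the fractions in either direction by limma or edgeR. Of all intervals, limma then called 0.000642% lower and 0.0122% higher in NFIAp. At an unadjusted p under 0.05 in that limma fit, 77 of 2392 members were lower and 119 higher, while 15219 of 155734 intervals differed in either direction. With the replicate block limma called 11 members lower and 28 higher, against 0.308% and 2.57% of all intervals. Without the 3 doubted libraries it called 1 lower and 2 higher, against 0.00963% and 0.168%. Interval_12504 was higher in NFIAp p2, with 90.2, 22.8 and 141 normalised reads against 27.9, 16.5 and 16 in NFIAn p2, a difference of 1.57 ± 0.29 (SE) with an adjusted p of 9.4e-05 in limma. Replicate 2 overlapped the NFIAn libraries. On MUT day 9 this interval had 19.7 to 25.4 in all 6 libraries, and on MUT day 11 it had 221, 209 and 277 in p0-p1, 124, 130 and 153 for p2 and 81.7, 84.2 and 82.1 for pMN. The pMN difference from the mean of the others in limma was -1.06 on MUT day 11, with an adjusted p of 0.0011, and -1.001 on MUT day 5, with an adjusted p of 0.0012. On MUT day 11 pMN was not called against p2 alone (-0.68, adjusted p of 0.16).

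On day 9, NFIAn cells of both genotypes can be compared. The libraries' medians averaged 41.6 ± 2.42 normalised reads in MUT p0-p1 and 41.8 ± 1.36 in MUT p2 (SD, n = 2 each), above the WT values of 35.9 and 34.5, and 20.4 ± 0.94 in MUT pMN (SD, n = 2) above the WT value of 16.4. In the mean of p0-p1 and p2, 91 members (3.80%) were higher in MUT and 17 (0.711%) lower, against 2.62% and 0.771% of all intervals, with a median of 0.19 against 0.06. With quantile normalisation 53 were higher and 31 lower. The lower count was 6 without MUT p0-p1 replicate 2 and 10 without MUT p2 replicate 2 or WT p2 replicate 1, and the higher count was 59 without MUT p2 replicate 2.

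In pMN, 93 members (3.89%) were higher in MUT and 4 lower on day 9, against 1.82% and 0.747% of all intervals, with a median of 0.25 against 0.07. These counts rest on 2 libraries a group: 47 were higher without MUT pMN replicate 1, 8 without MUT pMN replicate 2 and 5 without WT pMN replicate 1. With only the compared groups in the fit 15 were higher and 0 lower. The pMN difference itself was compared between the genotypes by a test of the difference of the differences, and limma and edgeR called 0 members and 0% of all intervals in either direction. At an unadjusted p under 0.05 the difference was more negative in MUT in 31 of 2392 members and more positive in 49, and the median was 0.07. At that p 3804 of 155734 intervals differed in either direction.

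Interval_3654 differed between the genotypes on day 9. In WT NFIAn it had 199, 143 and 90.9 normalised reads in p0-p1 and 126, 71.4 and 59.8 in p2, and in MUT it had 62.5 and 38.0 in p0-p1 and 40.9 and 20.5 in p2. The libraries of a population did not overlap between the genotypes, and the difference was -1.37 ± 0.26 (SE) with an adjusted p of 0.00022 in limma. On MUT day 11 the values were 81.3, 74.3 and 49.3 in p0-p1 and 50.1, 35.3 and 23.3 in pMN, while the WT NFIAp libraries that chose the members had 673, 623 and 464 in p0-p1 and 333, 309 and 294 in pMN.

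The members are scattered along the numbering of the intervals. Of the 2392, 134 (5.60%) have another member as the next or previous number, and 2.84% of the members' neighbours are members, against 1.54% of all intervals. The longest run is of 3 members. The median WT day 11 value of the smaller of p0-p1 and p2 minus pMN was -0.08 over the neighbours that are not members and -0.14 over all intervals. Whether neighbouring numbers mark neighbouring positions is not stated in the sources used here.

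Sets of intervals chosen by similar limits were also called in MUT day 11, where 8.77% of all intervals were lower in pMN and 4.83% higher. There were 893 intervals that met the day 11 limits and were higher in pMN on WT day 5, and 712 of them (79.7%) were lower in MUT pMN on day 11. Of the 1726 intervals that were lower in pMN with p0-p1 and p2 unequal, 1439 (83.4%) were lower in MUT pMN. Of the 2374 intervals with the opposite pattern, higher in pMN and alike in p0-p1 and p2, 827 (34.8%) were higher in MUT pMN. For the members the share lower was 60.4%, and the differences between these sets were not tested.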

How the data were processed

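Chromatin accessibility was measured by CaTS-ATAC in sorted progenitors, and the authors deposited the signal of each numbered interval in each library, a read count scaled by a factor of that library. The build, per the submitters' processing notes, was mm10; aligner, peak caller and counter are not given in the sources used here. Dividing each column by its smallest step gave whole reads, within 0.01, for 100% of values. No pair of libraries of a group agreed within counting noise.

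On the scale log2(value + 5), limma 3.58.1 (R 4.3.3) was run as 1 fit of 26 group means with a mean-variance trend and 45 residual degrees of freedom. A value of 10 or more in 2 or more libraries was required, which 155734 of 155738 intervals had, and all 2392 members passed. Calls needed a Benjamini-Hochberg adjusted p under 0.05 over all intervals and a log2 difference of at least 0.7. The script was run on simulated counts drawn independently for each library, and the outcome is not given here. edgeR 4.0.16 on recovered reads was an alternative, beside pseudocounts of 1 and 20, other scalings, filters and sizes, a replicate block and leaving out libraries.

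The members, lists and comparisons were chosen with earlier results of these data known. Single comparisons of pMN with p0-p1 or p2, the difference between genotypes, the change from WT day 7 to 9 by population and p2 against p0-p1 outside MUT day 11 were added after seeing the data. Named intervals had a mean at or above the members' median and were among the strongest of a comparison or of the WT day 11 difference. No overlap of libraries was required only for those picked as lower in pMN on MUT day 11, WT day 7 or WT day 9 NFIAn. None was picked by p2 against p0-p1. Those at the limits of the choice were the nearest on either side, with no minimum of the mean. Among groups compared here that share 3 or more replicate numbers, the numbers were taken to pair libraries where every pair's deviations correlated above 0.1. That held for populations within WT day 7, MUT day 5 and MUT day 7, p2 of the fractions on day 9, and p2 with pMN of NFIAp. Within MUT day 11 and WT day 9 not every pair reached that limit, though the mean was 0.22 and 0.20. Figures were drawn with matplotlib 3.10.9. Read counts are not independent molecules, so precision drawn from them covers counting error only.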

Additional observations from a re-analysis of the deposited data

Results flagged for a closer look

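The change over time differed between populations by a test of the difference of the changes in limma. From day 5 to day 11 in MUT it was more negative in pMN than in p0-p1 and p2 for 828 members and more positive for 27, against 15.0% and 7.23% of all intervals. The WT day 5 limit of the choice bears on these MUT counts. From day 7 to day 9 NFIAn in WT it was more negative in pMN for 118 members and more positive for 2, against 2.35% and 0.189% of all intervals. The count of 118 was 2 without WT day 9 pMN NFIAn replicate 1 and 247 with the replicate block. No group has 4 or more libraries, so single libraries were not tested for standing apart.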

How the results depend on the processing

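Values here are shares of the members tested. Each of 19 shares was recomputed under every setting, and "moved" means by over 1.5 times. The share of all intervals can change with the setting too. Where it is not printed beside a value, the move cannot be set against it. None of these 19 shares, each of 1 direction, moved without the filter or with a pseudocount of 1. Shares of the opposite direction also moved with some settings. The share higher in pMN on MUT day 5 was 5.06% with a pseudocount of 1, 0.627% with 20 and 0.753% with a minimum size of 1. With a pseudocount of 1 the share with a more positive change in MUT pMN was 0.669%. edgeR gave 5.85% higher in MUT p0-p1 and p2 on day 9, against 3.98% of all intervals. With a pseudocount of 20 the share lower in pMN was 35.2% in MUT day 11, 23.7% in MUT day 7, 10.6% in MUT day 5, 20.7% in WT day 7 and 5.98% in WT day 9 NFIAp, the share lower in p2 than p0-p1 in MUT day 11 was 1.46%, the rises from WT day 7 to 9 were 10.6% in p0-p1 and 11.96% in p2, the share higher in NFIAp p2 was 0.962% and that lower in MUT p0-p1 and p2 on day 9 was 0.209%. With a minimum size of 1 the same shares, in the same order up to the rises, were 33.9%, 23.3%, 7.19%, 20.0%, 4.93%, 1.00%, 11.7% and 11.7%, the fall in WT pMN from day 7 to 9 was 10.5% and the share lower in MUT p0-p1 and p2 was 0.125%. That last share was 1.30% with quantile normalisation, 0.460% with equal totals, 1.17% with no minimum size and 0.432% without the runs that shift together. With only the compared groups in the fit, 0 members were lower in WT day 9 NFIAp pMN, 0 higher in NFIAp p2 and 0 lower in MUT pMN on day 9. Over members with a mean of at least 30, 15.0% were lower in WT day 9 NFIAp pMN, 26.95% fell in WT pMN from day 7 to 9, 0.805% were higher in NFIAp p2 and 0.322% lower in MUT pMN on day 9. edgeR gave 3.51% higher in NFIAp p2, against 4.31% of all intervals. Without the 3 doubted libraries 27.2% were lower in WT day 9 NFIAp pMN, 5.64% higher in NFIAp p2 and 0.0836% higher in NFIAp pMN. The same shares of all intervals were 3.01%, 6.02% and 0.168%. With the replicate block the 3 shares of members were 17.6%, 2.84% and 1.17%, against 1.70%, 4.35% and 2.57% of all intervals. The block moved no other of the 19 shares by over 1.5 times. With it 247 members had a more negative change in WT pMN from day 7 to 9, against 4.78% of all intervals. Leaving out each library in turn gave 25.5% to 44.3% lower in MUT day 9 pMN, 32.6% to 53.8% in WT day 9 NFIAn and 2.01% to 26.9% in WT day 9 NFIAp. It gave 10.3% to 19.1% for the fall in WT pMN, 0.167% to 5.48% higher in NFIAp p2, 2.59% to 3.30% lower in p2 than p0-p1, 0.251% to 0.836% lower in MUT p0-p1 and p2 and 0% to 0.125% lower in MUT pMN. Where an arm was left with 1 library, it was assumed to vary like the other groups. The causes of these moves were not tested beyond what the settings themselves change. For the named intervals, 512 of 518 values kept their direction and side of the threshold, 6 lost the call and 0 reversed. Calls in WT day 9 NFIAn covered 31.6% of the 598 members with the lowest mean value, whose median difference was -0.61, and 73.1% of the 598 with the highest, at -1.03; the part of depth in this was not tested.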
